A study of Mus musculus with 61 samples.

Results

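Genes known from the pyramidal cells of Ammon's horn and from the granule cells of the dentate gyrus were followed through 61 slices of the mouse brain. The genes were taken by name, as a list of 7, and each was read from the array probe with the highest mean signal among its probes. Of the 7 genes, 6 had a probe, and these 6 genes hold 9 of the 41174 non-control probes of the array. Spink8, Prox1, Wfs1, Tdo2 and Fibcd1 were named through the RefSeq accession of the probe, which names 16358 genes on this array, and the probes of Dsp through the accession that the study's own list of regional genes pairs with it. Lct was not analysed here.

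The material was the whole brain of 6 untreated male C57BL/6J mice aged 8 weeks, perfused with RNAlater. Each brain was cut along a single body axis into 1 mm fractions, of 200 sections of 5 um each, and each fraction was hybridised to 1 array. Mice C and Co were cut coronally from posterior to anterior (13 and 16 fractions), mice H and Ho horizontally from dorsal to ventral (6 and 7), and mice S and So sagittally from left to right (9 and 10). The cuts of Co, Ho and So were slightly oblique to these planes. The study pairs fractions between the 2 mice of a plane by the highest correlation of their intensity values, with the fraction order deciding ties. The pairs were thus chosen from the values of these same arrays. This gives 28 pairs (c1 to c13, h1 to h6, s1 to s9) and leaves So1, Co1, Co13, Co16 and Ho1 without a partner. A fraction holds many brain areas, so that fewer cells of a type and less RNA per cell cannot be told apart, and there were 2 mice for each plane.

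The hippocampal formation is a fold of cortex in which the pyramidal cells of Ammon's horn and the granule cells of the dentate gyrus lie in separate dense layers. Granule cells send mossy fibres to the pyramidal cells of Ammon's horn, and the formation is best known for its part in memory. In the mouse it curves behind and above the thalamus, with a dorsal part near the midline and a ventral part that reaches far to the side. Of the genes of Ammon's horn, Spink8 belongs to the Kazal family of serine protease inhibitors, Fibcd1 codes for a membrane receptor with a fibrinogen-like domain that binds chitin, and Wfs1 codes for wolframin, a membrane protein of the endoplasmic reticulum. Of the genes of the dentate gyrus, Dsp codes for desmoplakin, a protein of the desmosome, Prox1 for a homeobox transcription factor of granule cells, and Tdo2 for tryptophan dioxygenase, which opens the kynurenine pathway.

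In the GRCm38.p6 annotation, Spink8 lies at chr9:109812203-109826628, Fibcd1 at chr2:31813290-31846964, Wfs1 at chr5:36966104-36988982, Dsp at chr13:38151294-38198577, Prox1 at chr1:190118035-190170827 and Tdo2 at chr3:81958412-81975728. The 250 bases before a transcript start are shown for 5 genes, because these genes share a list and their levels ran differently through the brain, as given in the following paragraphs. The sequences are RefSeq's for GRCm38.p6, read 5′ to 3′ on the strand of the gene. The start used for Fibcd1 lies inside the span of the gene given above, and the other 4 windows end at the edge of theirs. Of the 2 starts listed for Prox1, the window of the outer one is shown. Capitals mark each match to CANNTG, the E-box letters bound by helix-loop-helix factors of neurons.
Fibcd1 (chr2:31846006-31846255, reverse strand): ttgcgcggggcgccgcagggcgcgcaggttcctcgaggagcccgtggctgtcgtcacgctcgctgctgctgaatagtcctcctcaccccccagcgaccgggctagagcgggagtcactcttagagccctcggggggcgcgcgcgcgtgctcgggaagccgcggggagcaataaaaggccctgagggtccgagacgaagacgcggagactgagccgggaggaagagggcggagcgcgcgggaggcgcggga
Wfs1 (chr5:36988983-36989232, reverse strand): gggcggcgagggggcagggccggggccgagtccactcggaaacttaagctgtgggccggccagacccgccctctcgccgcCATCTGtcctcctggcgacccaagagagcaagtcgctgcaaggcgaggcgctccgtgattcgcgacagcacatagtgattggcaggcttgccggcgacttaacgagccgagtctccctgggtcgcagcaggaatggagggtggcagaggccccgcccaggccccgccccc
Dsp (chr13:38151044-38151293, forward strand): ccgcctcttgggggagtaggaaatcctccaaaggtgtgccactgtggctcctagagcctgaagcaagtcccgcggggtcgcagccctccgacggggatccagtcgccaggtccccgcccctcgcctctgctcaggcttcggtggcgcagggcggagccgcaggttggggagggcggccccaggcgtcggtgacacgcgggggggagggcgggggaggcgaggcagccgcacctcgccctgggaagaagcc
Prox1 (chr1:190170828-190171077, reverse strand): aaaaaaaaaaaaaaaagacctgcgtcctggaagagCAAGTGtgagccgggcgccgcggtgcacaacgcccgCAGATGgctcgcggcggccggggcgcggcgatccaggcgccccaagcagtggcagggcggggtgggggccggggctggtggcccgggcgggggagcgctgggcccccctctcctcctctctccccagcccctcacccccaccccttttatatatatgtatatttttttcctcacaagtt
Tdo2 (chr3:81975729-81975978, reverse strand): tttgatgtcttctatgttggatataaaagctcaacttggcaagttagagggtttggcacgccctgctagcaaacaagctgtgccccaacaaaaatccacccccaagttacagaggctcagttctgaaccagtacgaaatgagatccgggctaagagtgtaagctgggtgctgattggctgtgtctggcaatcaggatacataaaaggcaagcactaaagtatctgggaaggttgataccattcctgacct
The letters CANNTG were found once in the window of Wfs1, at 170 bases before the start, and at 215 and 179 bases before the start in the window shown for Prox1. The window of the other Prox1 start (chr1:190169516-190169765) held 0 matches to CANNTG and none to the other letters searched. The letters CANNTG were not in the windows of Fibcd1, Dsp and Tdo2, and 66.2% of 32851 such windows of all genes hold them. The more particular CAGATG, read on both strands and contained in CANNTG, was in the windows shown for Wfs1 and Prox1 and in 14.4% of all windows. TATAAA, read on both strands, was in the windows shown for Prox1 and Tdo2 and in 12.4% of all windows, and the cyclic AMP response letters TGACGTCA were in none of the windows shown and in 1.55% of all windows. The Fibcd1 and Dsp windows were rich in G and C (71.6% and 72.4%), whereas that of Tdo2 was not (46.4%).

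All levels below are log2 values relative to the 75th percentile of the array, so that 1 unit is a doubling and a level cannot be set against that of another probe. The signal at that percentile ranged from 740 to 1971 units over the arrays, and 57.9% to 73.1% of probes were well above background. None of the spots was saturated. The positions of the fractions were read from genes of known regions. Hoxa5, a gene of the hindbrain, was highest in C1 and Co2, Gabra6 of cerebellar granule cells in C3 and Co5, and the thalamic gene Prkcd in C7 and Co9. The orexin gene Hcrt of the lateral hypothalamus was highest in C8 and Co9, the striatal gene Adora2a in C10 and Co11, and Doc2g of the olfactory bulb in C13 and Co15. All 6 genes varied over the 28 pairs (limma, adjusted p from 1.53e-13 to 1.93e-08), where 61.3% of the 36573 probes tested did, so that the count itself is not particular to them. The levels along the coronal axis are drawn first, since that axis separated the genes most.

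**Figure D1:**
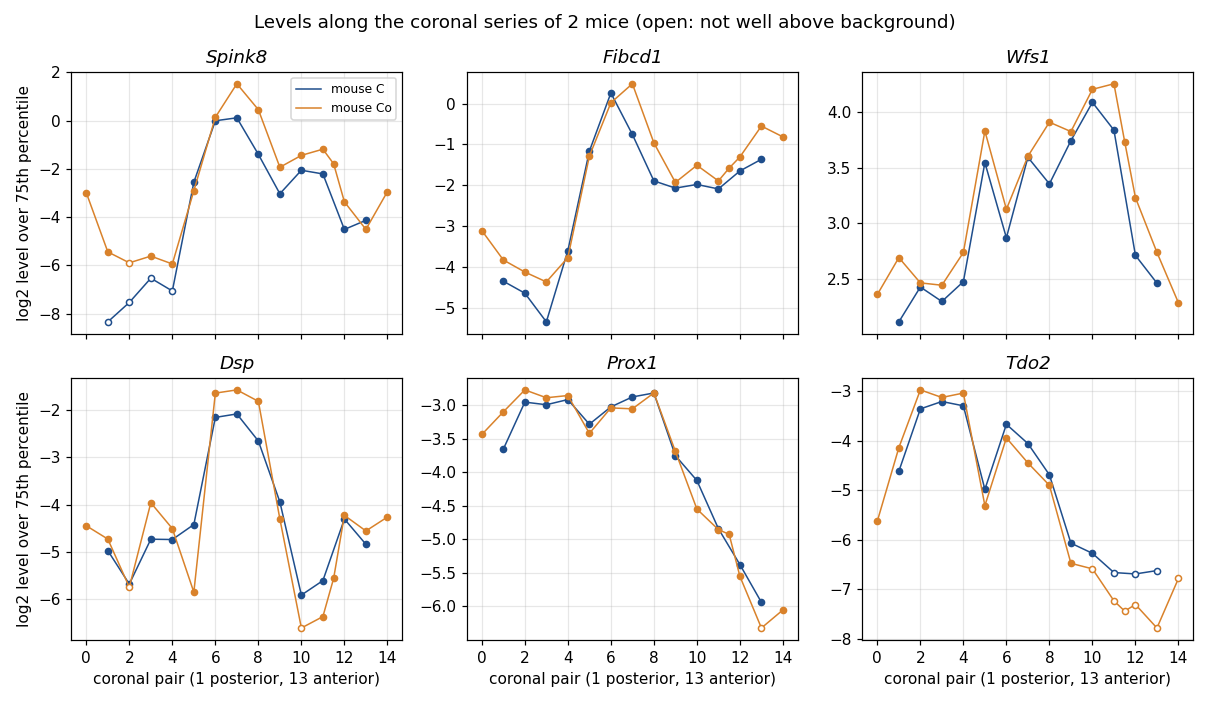
Log2 level over the 75th percentile of the array (y axis) of 6 genes in the coronal fractions of mouse C (blue) and mouse Co (orange), placed by pair from posterior to anterior (x axis). Fractions without a partner are drawn at the position between or beyond their neighbours, and open points were not well above background. Spink8 and Dsp were highest at pairs 6 to 8, Fibcd1 at pairs 6 and 7, Tdo2 at pairs 2 to 4, and Wfs1 at pairs 10 and 11. Prox1 was high at pairs 2 to 4 and 6 to 8 and lower at pair 5.

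Spink8 rose in a narrow stretch of the coronal series. In mouse C it was 0.12 in C7 and -0.01 in C6, against a median of -3.03 over the 13 fractions and a lowest value of -8.34 in C1. In mouse Co it was 1.53 in Co8, 0.46 in Co9 and 0.14 in Co7, against a median of -2.92 over the 16 fractions. The 3 fractions C6, C7 and C8 and their partners Co7, Co8 and Co9 were thus the 3 highest of their own mouse. At the cerebellar level Spink8 was not well above background in C1, C2, C3, C4 and Co3. Within mouse C the level in C7 was 315-fold that of the dimmest probe well above background on the C1 array. Spink8 was not well above background in C3 at -6.53, so that this fold is no strict bound. From C4 to C5 the level went from -7.06 to -2.55, and from Co5 to Co6 from -5.94 to -2.91. A low plateau followed anteriorly, with -2.21 in C11 and -1.18 in Co12. The middle pairs (c5 to c9) were higher than the end pairs by 3.78 ± 0.32 (log2, SE, 28 residual degrees of freedom), with an adjusted p of 7.18e-11. The difference was 3.92 in mouse C and 3.63 in mouse Co, and 2.32 with normexp background correction and quantile normalization.

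Fibcd1 was raised in the same stretch, but not with the same fall at the anterior end. In mouse C it was 0.26 in C6 and -0.76 in C7, with a median of -1.98 and a lowest value of -5.34 in C3. In mouse Co it was 0.49 in Co8 and 0.02 in Co7, with a median of -1.54 and a lowest value of -4.36 in Co4. The gene was well above background in all 61 fractions, and the level in C6 was 48.6-fold that in C3. In front of the peak it stayed near -2 (-2.07 in C9 and -1.93 in Co10) and was higher again towards the olfactory bulb, with -1.36 in C13, -0.55 in Co15 and -0.81 in Co16. The middle pairs exceeded the end pairs by 1.97 ± 0.18, with an adjusted p of 4.62e-10, by 2.00 in mouse C and 1.93 in mouse Co. The pair means of c6 (0.14) and c7 (-0.13) were closer to each other than the SD within pairs (0.46), so that their order is not resolved.

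Dsp formed a plateau of 3 pairs. It was -2.16 in C6, -2.09 in C7 and -2.66 in C8, and -1.65 in Co7, -1.58 in Co8 and -1.82 in Co9. The fractions on either side were lower in both mice, at -4.42 in C5 and -3.94 in C9, and at -5.85 in Co6 and -4.30 in Co10. No other coronal fraction of mouse C was above -3.94, and none of mouse Co was above -3.96. The means of pairs c6, c7 and c8 (-1.91, -1.83 and -2.24) lay within the SD within pairs of 0.54. Anterior to the plateau Dsp fell to its lowest coronal values, -5.91 in C10 and -6.60 in Co11. In Co11 this probe was not well above background and the other probe of Dsp (-6.34) was, and the lowest fraction of mouse Co by the other probe was Co3 (-6.83). It was higher again in front, at -4.30 in C12 and -4.23 in Co14. The middle pairs exceeded the end pairs by 2.04 ± 0.21, with an adjusted p of 4.61e-09, by 2.04 in each mouse, and by 1.21 with normexp background correction and quantile normalization.

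Prox1, Tdo2 and Wfs1 did not have their highest coronal fractions at this level alone. For Tdo2 and Wfs1 the position of the peak went against a hippocampal label, and Prox1 was as high at the cerebellar level. Prox1 had similar levels at both and fell forward of them. It was -2.96 in C2, -2.92 in C4 and -2.82 in C8, and -2.77 in Co3, -2.86 in Co5 and -2.82 in Co9. Between them it was lower at c5, with -3.29 in C5 and -3.42 in Co6. The highest pair mean, at c8 (-2.82), was closer than the SD within pairs (0.20) to those of 4 other pairs. From C8 to C13 the level fell at each step, to -5.94, and Co15, at -6.32, was not well above background. The middle pairs exceeded the end pairs by 0.93 ± 0.08, with an adjusted p of 1.97e-10, and by 0.42 with normexp background correction and quantile normalization. That contrast sets the thalamic and hippocampal pairs against both the high cerebellar and the low anterior ones, and so does not mark a peak.

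Tdo2 was highest at the level of the cerebellum. It was -3.35, -3.21 and -3.29 in C2, C3 and C4, and -2.97, -3.12 and -3.03 in Co3, Co4 and Co5. The means of pairs c2, c3 and c4 were all -3.16, against an SD within pairs of 0.46. At c5 the level dropped to -4.98 in C5 and -5.31 in Co6. It was higher again at c6, with -3.67 in C6 and -3.94 in Co7, and declined from there through -4.05 in C7 and -4.45 in Co8. Gabra6 rose at the same level, to 3.79 in C3 against a median of -2.88, and to 3.72 in Co5 against -3.10, and the part of cerebellar tissue in the Tdo2 and Prox1 levels was not tested. In front of C10 and Co10 this probe of Tdo2 was not well above background in any coronal fraction, and the other probe was in Co12 (-6.66). Middle and end pairs differed by 0.33 ± 0.18, which did not pass the test (adjusted p = 0.164). The level in C3 was 11.2-fold the value in C12, which was not well above background, so that this fold is uncertain.

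Wfs1 was well above background in all 61 fractions and varied less, with 5.45-fold between the highest fraction, H6, and the lowest, C1. Its coronal maximum was anterior to that of the other genes, at 4.09 in C10 and 4.25 in Co12. The striatal gene Adora2a was highest in C10 (0.55, against a median of -0.34) and Co11 (0.44, against -0.70). Rgs9, also a striatal gene, was highest in C9 (2.50, against a median of -1.34) and Co11 (2.77, against -1.04). The part of striatal tissue in the Wfs1 level was not tested. There was a second local maximum at c5, with 3.55 in C5 and 3.83 in Co6, between 2.48 in C4 and 2.87 in C6, and between 2.74 in Co5 and 3.13 in Co7. At c6, where Fibcd1 was highest in mouse C, Wfs1 was thus lower than on either side in both mice. The middle pairs exceeded the end pairs by 0.59 ± 0.09, with an adjusted p of 5.94e-06, by 0.62 in mouse C and 0.56 in mouse Co. Over the 6 genes, 5 were higher in the middle pairs and 0 were lower, where 15.3% of all probes tested were higher and 19.9% lower. The median difference over the 6 genes was 1.45 and that over all probes tested -0.07.

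**Figure D2:**
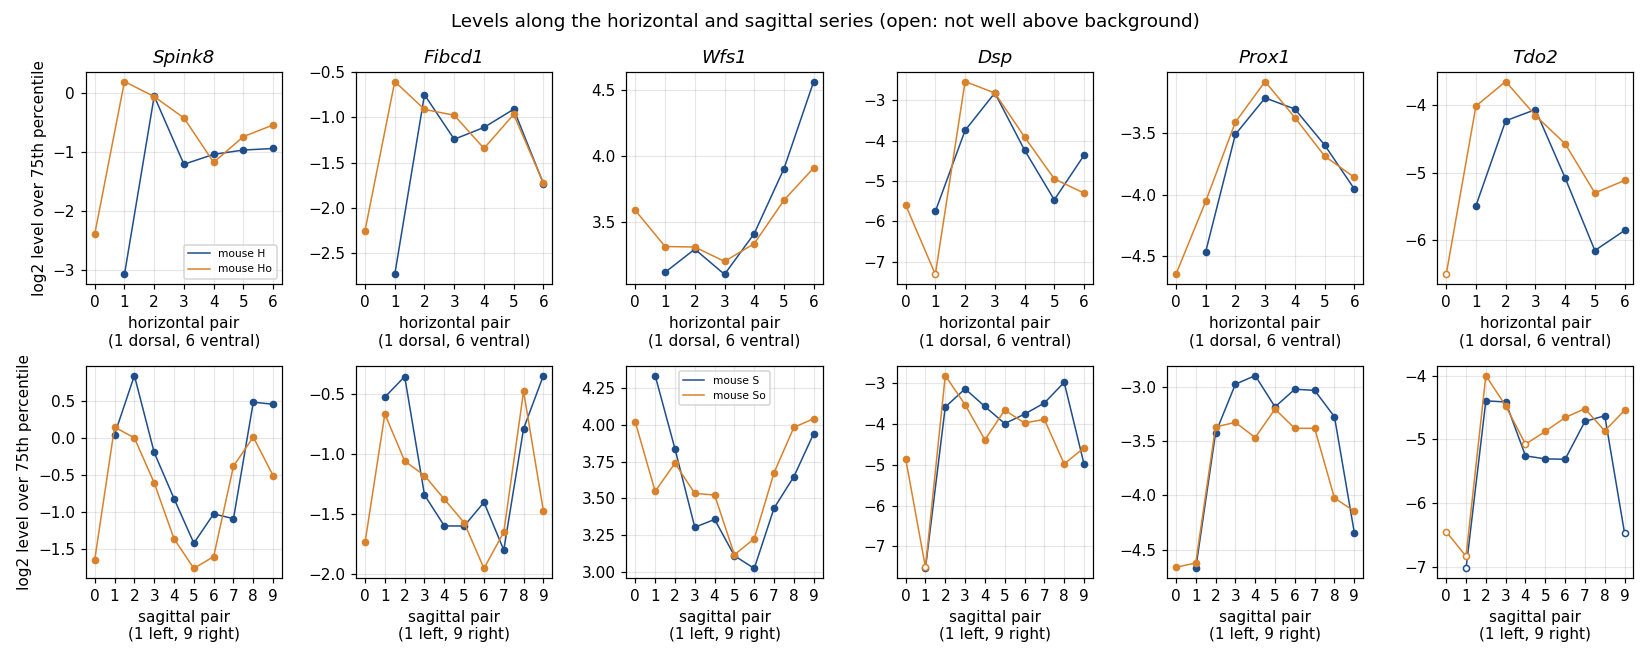
Log2 level over the 75th percentile of the array (y axis) of the 6 genes in the horizontal fractions of mice H and Ho (upper row) and the sagittal fractions of mice S and So (lower row), placed by pair (x axis). Fractions without a partner are drawn before the first pair, and open points were not well above background. In the sagittal rows Spink8, Fibcd1 and Wfs1 were lowest between pairs 5 and 7, while Prox1 was lowest at the sides.

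From dorsal to ventral, Tdo2 and Wfs1 differed in opposite directions. Tdo2 was highest in H3 (-4.06) and Ho3 (-3.65) and fell to -6.16 in H5 and -5.30 in Ho6. It was also low at the top of the brain, at -5.49 in H1 and at -6.51 in Ho1, which has no partner and was the lowest of mouse Ho. Its dorsal pairs (h1 to h3) exceeded the ventral ones (h4 to h6) by 1.08 ± 0.26, with an adjusted p of 0.00405, by 1.10 in mouse H and 1.06 in mouse Ho, and by 0.48 with normexp background correction and quantile normalization. Wfs1 was at most 3.41 in H1 to H4, and was 3.90 in H5 and 4.56 in H6. In mouse Ho it was 3.20 in Ho4 and 3.91 in Ho7. Its dorsal pairs were below the ventral ones by -0.58 ± 0.13, with an adjusted p of 0.00244, by -0.79 in mouse H and -0.36 in mouse Ho. Thus 1 of 6 genes was higher dorsally and 1 was lower, where 5.2% of all probes tested were higher and 7.38% lower. Of the calls over all probes, 41.3% were higher dorsally with scaling to the 75th percentile and 55.5% with scaling to the median. With mouse Ho alone, neither call passed (adjusted p = 0.0849 for Tdo2 and 0.425 for Wfs1), and with fractions paired by the same number neither did (0.585 and 0.399).

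The contrast did not pass for the other 4 genes (limma, adjusted p from 0.308 to 0.991). Their highest and next highest pair means differed by less than the SD within pairs, so that the order of these pairs is not resolved. These were h2 (-0.06) and h6 (-0.74) for Spink8 (SD 0.82), and h2 (-0.83) and h5 (-0.94) for Fibcd1 (SD 0.46). For Prox1 they were h3 (-3.15) and h4 (-3.34) (SD 0.20), and for Dsp h3 (-2.81) and h2 (-3.14) (SD 0.54). Dsp was highest in H3 (-2.81) and Ho3 (-2.53), next highest in H2 (-3.74) and Ho4 (-2.81), and low at the top of the brain, at -5.75 in H1 and -7.31 in Ho2. The Ho2 value was not well above background. The dorsal and ventral pairs of Dsp differed by 0.54 ± 0.30 (adjusted p = 0.308), and with normexp background correction and quantile normalization by 0.51 (adjusted p = 0.0318). Prox1 was highest at pair h3 in both mice, at -3.21 in H3 and -3.08 in Ho4, and fell to -4.46 in H1 and -4.65 in Ho1. Spink8 and Fibcd1 were highest in the second fraction of each mouse, at -0.05 and -0.75 in H2 and at 0.19 and -0.61 in Ho2. In the topmost fraction they were low in both mice, at -3.07 and -2.73 in H1 and at -2.39 and -2.25 in Ho1. The study pairs H1 with Ho2, and this pair held the largest difference between mice of any pair for Spink8, 3.26. At pair h2 Spink8 differed by 0.01 between the mice. The dorsal minus ventral difference of Spink8 was -0.46 in mouse H and 0.72 in mouse Ho, and that of Fibcd1 -0.32 and 0.51.

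In the sagittal series, Spink8 and Wfs1 were higher in the lateral pairs and Prox1 was lower there. Spink8 was 0.84 in S2 and 0.48 in S8 against -1.42 in S5, and 0.14 in So2 and 0.01 in So9 against -1.76 in So6. The outermost fraction So1, which has no partner, was low, at -1.64 for Spink8 and -1.74 for Fibcd1. The lateral pairs of Spink8 (s1 to s3 and s7 to s9) exceeded the medial ones by 1.26 ± 0.40, with an adjusted p of 0.0296. This call was lost without S2, S5, S9, So5, So6, So7 or So8 (adjusted p from 0.0518 to 0.0908), with either mouse alone (0.302 and 0.351) and with fractions paired by the same number (0.537). The difference was 1.17 in mouse S and 1.35 in mouse So. Wfs1 was 4.33 in S1 and 3.94 in S9 against 3.02 in S6, and 4.04 in So10 and 4.02 in So1 against 3.12 in So6. Its lateral pairs were higher by 0.53 ± 0.11, with an adjusted p of 0.0013. With mouse So alone the adjusted p of Wfs1 was 0.0973, and with fractions paired by the same number 0.206. Fibcd1 was -0.36 in S2 and -0.35 in S9 against -1.80 in S7, and -0.67 in So2 and -0.48 in So9 against -1.95 in So7. Its lateral minus medial difference of 0.61 ± 0.23 did not pass the test (adjusted p = 0.0719), and passed with the mouse as a block (adjusted p = 0.0249).

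Prox1 was lower laterally, by -0.53 ± 0.10, with an adjusted p of 0.000412, and by -0.59 in mouse S and -0.46 in mouse So, and by -0.26 with normexp background correction and quantile normalization. It was -4.67 in S1 and -4.34 in S9 against -2.89 in S4, and -4.62 in So2 and -4.14 in So10 against -3.20 in So6. Its other probe gave -0.39 with an adjusted p of 0.0845. Dsp was -3.14 in S3 and -2.98 in S8 and was not well above background in S1 (-7.54). Likewise it was -2.81 in So3 and was not well above background in So2 (-7.51), the partner of S1 and on the same slide as S1. Its lateral minus medial difference of -0.53 ± 0.26 did not pass the test (adjusted p = 0.217). Tdo2 was -4.40 in S2 and -4.00 in So3 and was not well above background in S1, S9, So1, So2 and So5, and its lateral minus medial difference was 0.01 ± 0.23. Over the 6 genes, 2 were higher and 1 was lower laterally, where 6.26% of all probes tested were higher and 7.67% lower. Over all probes, 44.9% of the calls were higher laterally with scaling to the 75th percentile and 65.7% with scaling to the median.

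None of the 6 genes passed the limma test between the left and right pairs (adjusted p from 0.782 to 0.989), where 0.153% of all probes tested did. At an unadjusted p under 0.05 the count was also 0, with limma and with the linear model without moderation. The differences ranged from -0.43 ± 0.26 for Dsp to 0.22 ± 0.23 for Fibcd1.

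**Figure D3:**
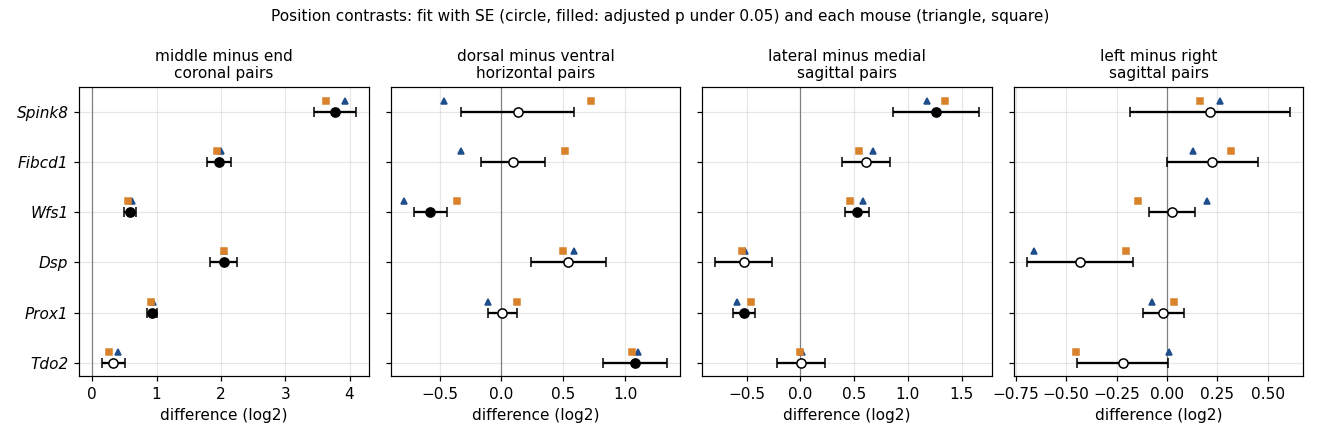
Difference in log2 level (x axis) of the 6 genes for 4 contrasts of position. Circles give the fit with its SE (filled where the adjusted p was under 0.05), triangles the difference within mouse C, H or S, and squares that within mouse Co, Ho or So. The middle coronal pairs were higher for 5 genes by 0.59 to 3.78, and the mice of a plane differed in sign for Spink8, Fibcd1 and Prox1 from dorsal to ventral.

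The peak of each gene in each mouse was then looked up in the partner fraction of the other mouse. Of the 36 peaks (6 genes in 6 mice), 36 had a partner, and 21 of these partners were the highest or next highest fraction of their own series. Wfs1 had 5 of 6 such partners, Dsp 4, and Spink8, Fibcd1, Prox1 and Tdo2 3 each. Partners were chosen by correlation on these same arrays, and the number that chance gives was not computed. The count is therefore a description and not an independent repeat. For Tdo2 the partner was above the median of the remaining fractions in 6 of 6 cases, by 1.28 ± 0.66 (SD). For Spink8 it was above in 5 of 6 cases, by up to 4.47 in the coronal series, and below by -2.10 for the peak in Ho2, whose partner is H1. For Dsp it was above in 5 of 6 cases, and below for S8, whose partner So9 was at -4.98 against a median of -3.98 over the remaining fractions.

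The fractions without a partner in the other mouse entered no test. Co1, at the posterior end, had a Spink8 level of -2.99, above those of Co2 to Co5 (-5.44, -5.89, -5.61 and -5.94). Fibcd1 was likewise higher in Co1 (-3.11) than in Co2 (-3.83). In Co16, at the anterior end, Spink8 was -2.94, above the -4.51 of Co15. Tdo2 was not well above background in So1, Co13, Co16 and Ho1.

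The 2 mice of a plane differed in 4 of 18 comparisons of a gene. In each plane 1 of the mice was cut obliquely, so that mouse and cutting angle cannot be told apart. Spink8 was higher in Co than in C by 1.01 ± 0.24 (adjusted p = 0.000745), in 11 of 13 pairs, and by 0.43 with normexp background correction and quantile normalization. Wfs1 was higher in Co by 0.27 ± 0.07 (adjusted p = 0.00288), in 13 of 13 pairs, and Fibcd1 by 0.43 ± 0.16 (adjusted p = 0.0235), in 10 of 13. Of all probes tested, 53.4% differed between Co and C. Their arrays were scanned on different days throughout, so that mouse, cutting angle and scan day cannot be told apart. The Fibcd1 call was lost without C3, C7, C8, Co4, Co8 or Co9 (adjusted p from 0.0514 to 0.0621) and with the slide as a random block (0.137). The arrays of S2 to S9 were scanned on another day than those of So. Scan day thus cannot be told apart from mouse and cutting angle in any sagittal pair except s1. Prox1 was lower in So than in S by -0.23 ± 0.09 (adjusted p = 0.0431), in 6 of 9 pairs, where 29.9% of all probes differed. That call passed in 51 of 70 alternatives, and was lost without S3, S4, S6, S7, S8, So4, So5, So7, So8 or So9 (adjusted p from 0.0858 to 0.156), with either coronal mouse (0.06) or either horizontal mouse (0.0644) left out, with the slide as a random block (0.335), with scaling to the median (0.163), in the authors' normalized table (0.165), with normexp background correction and quantile normalization (0.066), and with the other probe of Prox1 (0.132). Between Ho and H, where 5.52% of all probes differed, 0 of the 6 genes passed in limma and in the model without moderation, and 2, Spink8 and Tdo2, had an unadjusted p under 0.05. Tdo2 was higher in Ho by 0.68 ± 0.21 (adjusted p = 0.0537). The other probe of Tdo2 gave 0.97 with an adjusted p of 0.0494.

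**Figure D4:**
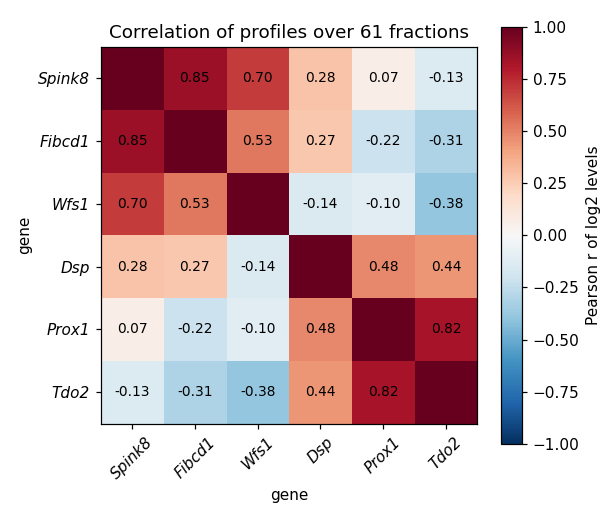
Pearson correlation of the log2 levels of each pair of genes over the 61 fractions, with the genes on both axes and the colour scale from -1 to 1. Spink8 and Fibcd1 (0.85) and Prox1 and Tdo2 (0.82) were the closest pairs, and Wfs1 and Tdo2 (-0.38) the most opposed.

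Over the 61 fractions, the profiles of Spink8 and Fibcd1 had a Pearson correlation of 0.85 and a Spearman correlation of 0.77, and the correlation lay between 0.78 and 0.91 within each of the 6 mice. Prox1 and Tdo2 had 0.82 and 0.78, with 0.53 to 0.88 within each mouse. Dsp had 0.48 with Prox1 and 0.44 with Tdo2. In the sagittal series, where Dsp was not well above background in S1 and So2, it had 0.80 to 0.91 with them. Within the coronal mice Dsp had 0.291 to 0.395 with Prox1 and Tdo2. There it had 0.43 to 0.62 with Spink8 and Fibcd1, and -0.13 to 0.11 with Wfs1. Wfs1 had 0.70 with Spink8, from -0.30 in mouse Ho to 0.76 in mouse C. The values within a group were 0.85, 0.70 and 0.53 for the genes of Ammon's horn, and 0.82, 0.48 and 0.44 for those of the dentate gyrus. The median over these values of both groups was 0.61, and the median between the groups was -0.13. The 0.82 is that of Prox1 and Tdo2, which were both high at the cerebellar pairs c2 to c4. The part of those fractions in this value was not tested. All genes were read from the same arrays, and the fractions overlap in space between mice and planes, so that these values describe the profiles and carry no test.

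Among 13747 genes, the 3 with the profile most like each gene were listed by Pearson correlation over the 61 fractions. Spink8 was followed by Slc26a4 (0.95), an anion exchanger, then St6galnac5 (0.91), a sialyltransferase, and the forkhead gene Foxo6 (0.90). Fibcd1 was followed by Cpne7 (0.91), a copine, then St6galnac5 (0.90) and Slc6a7 (0.90), the brain proline transporter. Slc26a4, St6galnac5 and Cpne7 were highest in C6 and Co8, as was Fibcd1, whereas Foxo6 was highest in C10 and Co12 and Slc6a7 in C13 and Co8. Dsp was followed at a distance by C1ql2 (0.72), a secreted complement-like protein of mossy fibre synapses, then Wnt9b (0.69) and the thalamic gene Prkcd (0.66). Prox1 was followed by Kndc1 (0.95), Clmn (0.91) and Frmd5 (0.91), with maxima in C3 and Co3 for Kndc1, C3 and Co9 for Clmn, and C2 and Co5 for Frmd5. Tdo2 was followed by St18 (0.91), Tanc1 (0.89) and Eps8l2 (0.87), all with their coronal maximum at pairs c2 to c4. Wfs1 was followed by Msantd1 (0.89), Cfap20dc (0.88) and Ehbp1l1 (0.87), with their coronal maximum at c10 or c11.

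Further genes known from these layers were then counted. Of the 16 listed for Ammon's horn, 14 had a probe that could be tested, and 12 of these varied over the 28 pairs, all except Fgf2 and Iyd, where 61.3% of all probes tested did. Of the 12 listed for the dentate gyrus, 11 had a probe, that of Glis3 was well above background in 0 fractions, and the 10 tested all varied. The genes with the largest F in the first list were Rgs14, a scaffold of G protein signalling, then the helix-loop-helix factor Neurod6 and the metallophosphodiesterase gene Mpped1. Rgs14 exceeded in the middle pairs by 3.17 ± 0.07 (adjusted p = 9.91e-24), Neurod6 by 2.38 ± 0.13 (1.99e-15) and Mpped1 by 1.54 ± 0.11 (1.17e-12). Rgs14 and Mpped1 nevertheless had their highest coronal pair mean at c11 (3.12 and 5.66), which is an end pair. For these genes the contrast thus does not mark a peak in the middle pairs. Neurod6 was 0.82 at c7 and 0.79 at c11. Of the 14 genes, 9 were higher and 2, the calcium channel subunit Cacng5 and the protease Prss23, were lower in the middle pairs, where 15.3% of all probes tested were higher and 19.9% lower, and the median difference was 0.67, against -0.07 over all probes tested. The other probe of Prss23 gave 0.05 ± 0.15 (adjusted p = 0.836). Cacng5 and Prss23 had their highest pair mean at c13, the anterior end. Laterally 6 were higher and 2 lower (6.26% and 7.67% of all probes), with Ccn3, a matricellular protein, higher by 1.19 ± 0.22 (adjusted p = 0.000213). Dorsally 4 were higher and 1 lower (5.2% and 7.38% of all probes), and 0 passed between left and right, where Amigo2 and Neurod6 had an unadjusted p under 0.05.

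In the dentate list the largest F values were those of C1ql2, the calcium buffer Calb1 and the cation channel Trpc6. C1ql2 was higher in the middle pairs by 2.81 ± 0.13 (adjusted p = 7.08e-17), with its highest pair mean at c6 (0.64), and lower laterally by -0.76 ± 0.16 (adjusted p = 0.00108). Trpc6 was higher in the middle pairs by 1.27 ± 0.10 (adjusted p = 1.87e-11), although its coronal pair means were as high at the end pair c11 (-2.19) as at c6 (-2.20). Calb1 was lower there, by -0.29 ± 0.10 (adjusted p = 0.0186), with its highest pair mean at c4 (5.82). Of the 10 genes, 4 were higher and 4 were lower in the middle pairs, where 15.3% of all probes tested were higher and 19.9% lower, and the median difference was 0.09. The 4 lower ones were Calb1, the cytokine gene Il16, the helix-loop-helix factor Neurod1 and the kinase gene Plk5, and each had its highest pair mean at c2 or c4. Dorsally 5 were higher and 0 lower (5.2% and 7.38% of all probes), laterally 2 were higher and 2 lower (6.26% and 7.67%), and 0 passed between left and right, where C1ql3 had an unadjusted p under 0.05.

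**Figure D5:**
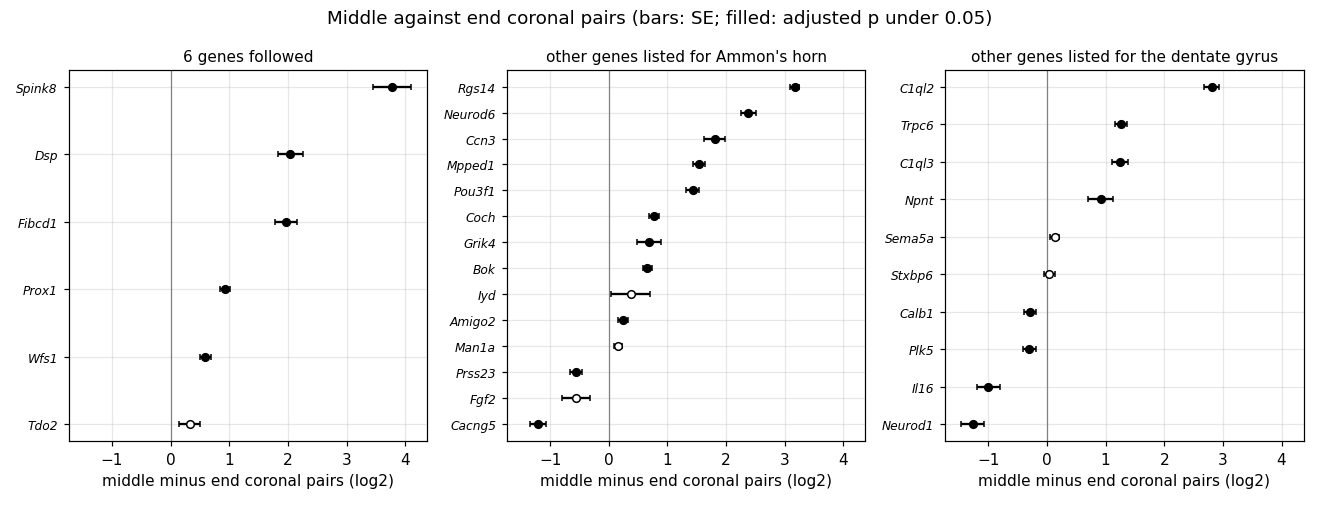
Difference between middle and end coronal pairs in log2 (x axis) with SE bars for the 6 genes followed, 14 other genes listed for Ammon's horn and 10 for the dentate gyrus (y axis). Filled points had an adjusted p under 0.05. Rgs14 and Neurod6 led the first list and C1ql2 the other, and 4 dentate genes lay below 0.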

How the data were processed

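One-colour Agilent whole mouse genome arrays measured RNA of 61 brain fractions. Per the file headers, the deposited spot intensity is the background-subtracted output of Agilent Feature Extraction 9.1.3.1, without normalization between arrays. The authors added a table of per-array normalized intensity values from GeneSpring GX, with 36558 probes. Here the background-subtracted intensity was put on a log2 scale, the spots of each probe were averaged, and the array's 75th percentile over 41174 non-control probes was subtracted. Sagittal labels numbered 2 to 10 in mouse S were renumbered 1 to 9, as the study does.

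The 28 pairs of the study (56 arrays) entered limma 3.58.1 in R 4.3.3 (lmFit and eBayes, 27 numerator, 28 residual and 1.88 prior degrees of freedom), with Benjamini-Hochberg adjustment over the 36573 probes well above background on at least 1 array and a threshold of 0.05. Contrasts of position came from this fit, which has no term for the mouse, and contrasts of mice from a fit of the pairs with 1 term for the mouse in each plane, and the methods' one-way ANOVA was an alternative. The pairs were chosen for their likeness on these arrays, so that the SD within pairs may be too low and the adjusted p too small. On simulated data, 83.5% of 200 probes shifted by 1 between middle and end coronal pairs were recovered, among 36573. The simulated noise was independent between arrays, so that the correlation within a plane given below was not part of it. The number of arrays limits the precision. Arrays lay on 16 slides, scanned on 5 days. Fractions of a mouse come from the same animal, and their deviations from the pair means correlated within a plane (median 0.278 over 129 combinations, 115 over 0.1) and not between planes (-0.03), so that a fit with the mouse as a block was an alternative.

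The genes and lists were chosen with earlier results of these data known. The 6 genes measured are named in full, and of each list the 3 genes with the largest F. For each gene, the 3 others of highest correlation are named, from probes well above background in at least 10 fractions. Positions of region genes were read as a check. The promoters are RefSeq's. Of the dentate list, 1 gene is not reported here.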

Additional observations from a re-analysis of the deposited data

Results flagged for a closer look

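The 24 sets of horizontal or sagittal levels, of each of the 6 genes in mice H, Ho, S and So, were looked through for a fraction standing apart from the others by Dixon's criterion, which chance meets in about 1 in 20 sets (5%). It was met in 2 sets, both of Dsp. In mouse S, the Dsp level in S1 was -7.54, against -4.98 in the next lowest fraction, a gap of 0.561 of the range. In mouse So, it was -7.51 in So2 against -4.98, a gap of 0.539 of the range. S1 and So2 are partners at the left side of the brain, and neither of the 2 probes of Dsp was well above background in them. S1, So1 and So2 lay on the same slide, and the other fractions of these mice on other slides. On the S1 and So2 arrays 59.1% and 57.9% of probes were well above background, against a median of 66.3% over all arrays. Position, slide and array quality cannot be told apart here. The other probe of Dsp did not meet the criterion. Its gap was 0.365 of the range in mouse S, and in mouse So its lowest fraction was So1 (-7.60), with a gap of 0.238 of the range.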

How the results depend on the processing

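Every gene of the 6 kept a pass for variation over the 28 pairs under each alternative in which its probe was tested. The lowest F was 2.25 for Dsp, 5.27 for Spink8, 6.44 for Fibcd1, 3.53 for Wfs1, 10.1 for Prox1 and 5.38 for Tdo2. That of Dsp came with fractions paired by the same number (adjusted p = 0.041), against 13.3 with the study's pairs. The 5 genes higher in the middle coronal pairs kept their sign and call except Wfs1 with fractions paired by the same number (0.41, adjusted p = 0.0775). Their sizes fell by over 1.5 times with normexp background correction and quantile normalization for Spink8 (2.32), Dsp (1.21) and Prox1 (0.42). Restricting the tests to probes well above background on all arrays left Fibcd1 and Wfs1, of which 2 varied over the pairs, 2 were higher in the middle pairs, 1 differed from dorsal to ventral, 1 from lateral to medial, and 2 between mice. With fractions paired by the same number, 0 genes differed from dorsal to ventral and 1 from lateral to medial, and with the slide as a random block 2 differed between mice; the cause was not tested. Leaving out each array or mouse in turn gave 6 genes varying over the pairs, 5 from middle to end, 0 to 2 from dorsal to ventral, 1 to 4 from lateral to medial, 0 from left to right, 0 to 5 between mice, and 21 to 23 of the 24 other listed genes tested varying over the pairs, against 22 with all arrays. The 0 from dorsal to ventral was that without mouse H. The replicate block for the mouse, a pairing of fractions by animal, gave 6, 5, 2, 4 and 0 genes for the 5 kinds of position result, and changed no call other than that of Fibcd1 from lateral to medial. No alternative turned the sign of a call. Leaving out spots with an outlier flag, an alternative chosen after seeing the data, changed no call of the 6 genes. The partner of a peak ranked highest or next highest for 21 peaks, and for 17 to 22 under the alternatives. The median correlation within the 2 groups of genes, pooled over both, was 0.611, and 0.433 to 0.624 under the alternatives. Tdo2 was well above background in 46 of 61 fractions. Its values in the others, like those of Spink8 and Dsp that were not well above background, are uncertain.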
